A study of Drosophila melanogaster with 36 samples.

Results

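The piRNA clusters dme-clu-26, dme-clu-41, dme-clu-44, dme-clu-48 and dme-clu-70, 5 of 56 numbered clusters in all, were examined in the heads of young and old flies. They were selected on measured values: each had a column set that was lower in old than in young heads. The difference between the ages is therefore given for them as a description, without a test, and only their course over the day was tested.

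PIWI-interacting RNAs (piRNAs) are small RNAs, somewhat longer than microRNAs, that guide PIWI proteins to matching transcripts. They are processed from long transcripts of genomic regions called piRNA clusters, which in Drosophila are rich in fragments of transposable elements. The pathway is known above all from the ovary and testis, where it silences transposons and protects the germline genome. Its activity outside the gonad, in tissues such as the head, is less well understood.

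Libraries of small RNA were made from the whole heads of female flies of genotype w1118, a white-eyed laboratory strain that all groups share, with 400 heads pooled in each sample. Young flies were 5 days old and old flies 55 days old. Sampling covered 6 zeitgeber times (ZT, hours on the daily cycle) at each age, every 4 h from ZT0 up to ZT20. With 3 replicates per age and time, there were 36 libraries in 12 groups. The labels do not state that replicates were raised as separate cultures, so p-values measure the spread between these samples, which may be technical.

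The tables give every cluster in a pair of column sets, called here the first and the second set, without saying what separates them, and they name clusters by number alone. Each cluster in each set was treated as a feature of its own. The 5 clusters thus hold 10 features, of which 9 had enough counts to be tested. The exception was dme-clu-26 in the first set, which had a count of 0 in all 36 libraries. A count of 0 allows up to 3 counts, or 0.0327 to 0.0822 RPM depending on the library, which covers counting error only. It was 1 of 10 clusters at 0 throughout the first set, and no cluster was at 0 throughout the second.

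Libraries held 139322 to 441447 piRNA counts, of which the second set supplied 1372 to 14051. The clusters are minor contributors to this pool. The 5 column sets with the age difference together made up 0.314% of piRNA counts in young heads and 0.0837% in old heads, whereas dme-clu-51 in the first set alone held 53.1%. Levels are given as deposited RPM, in which a read is scaled to a library total, here of 36.5 to 91.6 M reads that the tables do not name. Fitted changes are on the log2 scale of CPM, in which a count is scaled to the library's piRNA counts, after TMM scaling, a normalisation that sets the bulk of features equal between libraries. Cluster lengths are not known, so levels were not compared between clusters.

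Markers of head tissues were present in every library: the neuronal miR-124-3p at 90.5 CPM of the microRNA counts or more, the photoreceptor miR-210-3p at 12557 or more and the muscle miR-1-3p at 270.0 or more. Their levels also differed between the ages. Medians, without the 3 libraries described next, were 299.8 in young and 456.0 in old heads for miR-124-3p, 405.7 and 620.1 for miR-1-3p, and 34825 and 31731 for miR-210-3p. Whether a change in the makeup of the heads bears on the age difference of the clusters was not tested. In 3 libraries, however, the summed level of 4 ovary-enriched microRNAs (miR-318-3p, miR-989-3p and both arms of miR-994, all 4 in the table) was high. On that scale it was 552 in young ZT4 replicate 3. In young ZT8 replicate 3 it was 889, and it was 723 in old ZT0 replicate 1. Elsewhere it was 11.4 to 53.3 in the other 16 young libraries and 11.6 to 57.0 in the other 17 old libraries, and none of the 4 was at 0 throughout. The 8 testis-enriched arms of the marker list summed to 5.51 to 17.3 across all libraries, with medians of 10.6 in young and 14.1 in old heads outside those 3. Second-set piRNA totals were 11526 to 14051 counts in the 3 libraries against 1372 to 4295 in the other 33. Values without these 3 libraries are given beside the results they touch, and the part of ovary RNA in each result was not tested. In RNA from whole heads, fewer cells that make a piRNA and less of it per cell cannot be told apart.

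The lowest levels in old relative to young heads belonged to dme-clu-41 in the second set. Its young libraries ranged from 6.97 to 8.09 RPM with a median of 7.40, and its old libraries from 1.40 to 1.93 RPM with a median of 1.61. No old library came near any young one. The means were 7.44 ± 0.278 RPM in young and 1.60 ± 0.154 RPM in old heads (SD, n = 18 each), a 4.65-fold ratio, and the fitted change was -2.05 (SE 0.148, log2, old minus young). Of 85 tested features, 1 had all 18 old libraries below all 18 young libraries in RPM, which is 1.18%, and it was this one.

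The level of dme-clu-41 in the second set was steady across the day as well as between replicates. Young group means ran from 7.18 ± 0.193 RPM at ZT12 to 7.53 ± 0.336 RPM at ZT16, and old group means from 1.43 ± 0.0293 RPM at ZT8 to 1.74 ± 0.167 RPM at ZT12 (SD, n = 3 each). The chi-square of its counts around the group means was 0.812 per degree of freedom. Its counts were fractional, so this value does not show that spread beyond counting error was absent. The median chi-square per degree of freedom over tested features was 13.2, and 1.63 without the 3 libraries high in ovary markers. Among second-set counts it held 17.3% ± 2.18 in young heads (n = 16) and 4.59% ± 0.285 in old heads (n = 17), those 3 libraries left out.

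For dme-clu-26 in the second set, the only set with counts of this cluster, young libraries spanned 1.51 to 6.03 RPM with a median of 2.50. Old libraries spanned 0.541 to 2.28 RPM with a median of 0.699. The ranges overlapped through old ZT0 replicate 1, at 2.28 RPM, one of the libraries high in ovary markers. Without the 3 such libraries the old values ended at 1.10 RPM, below every young value. The means were 2.81 ± 1.16 and 0.794 ± 0.394 RPM (n = 18 each), and the fitted change was -1.65 (SE 0.128).

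Replicates of this column set were uneven. At young ZT4 its levels were 4.04, 1.51 and 4.38 RPM, and at young ZT0 2.05, 2.14 and 3.61 RPM. Without the 3 libraries the chi-square of its counts per degree of freedom, around the group means, was 14.7 in young and 2.11 in old heads. Counting error alone gives about 1 for whole counts, a rough guide here because these counts were fractional. The young value was the largest of the 5 column sets with the age difference when the 3 libraries were left out. Over all libraries dme-clu-44 in the first set had a larger value, 26.8 against 18.5. Without the 3 libraries, the mean share of dme-clu-26 in second-set counts was 5.76% ± 1.47 in young (n = 16) and 2.03% ± 0.336 in old heads (n = 17).

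In the first set, dme-clu-44 had young levels of 1.20 to 5.67 RPM with a median of 1.40 and old levels of 0.276 to 2.74 RPM with a median of 0.389. The high end in each age was again set by the libraries high in ovary markers. Without them young levels ended at 1.89 RPM and old levels at 0.513 RPM, so the ages did not overlap. Means without them were 1.40 ± 0.180 RPM (n = 16) and 0.391 ± 0.0719 RPM (n = 17). The fitted change over all libraries was -1.64 (SE 0.120).

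For dme-clu-48 in the second set, young levels were 0.139 to 0.778 RPM with a median of 0.208, and old levels 0.0309 to 0.229 RPM with a median of 0.0562. The counts behind them are small, with medians of 11.1 per young library and 4.46 per old library, against the floor of 3. Without the 3 libraries the lowest young level, 0.139 RPM, lay above the highest old level, 0.0853 RPM. The fitted change was -1.72 (SE 0.129).

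For dme-clu-70 in the first set, young levels were 0.263 to 1.68 RPM with a median of 0.331, and old levels 0.0774 to 0.700 RPM with a median of 0.0997. Here too the highest old value came from old ZT0 replicate 1, and without the 3 libraries old levels ended at 0.173 RPM, below all young ones. The fitted change was -1.59 (SE 0.137). Median counts were 19.9 in young and 7.89 in old libraries.

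**Figure D1:**
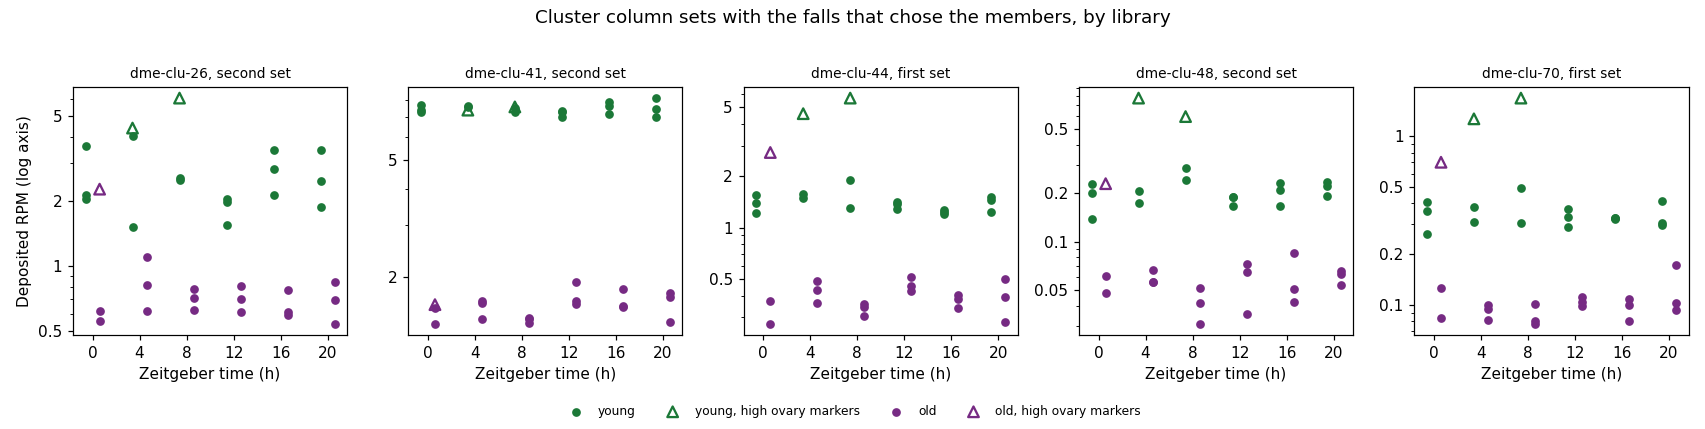
Deposited RPM (log axis) of the 5 column sets with the age difference against zeitgeber time in hours; each point is 1 library, green for young and purple for old, and triangles mark the 3 libraries high in ovary markers. For dme-clu-41 in the second set all young points lie at 6.97 RPM or more and all old points at 1.93 RPM or less, triangles included, whereas in the other panels the triangles stand above their own age.

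All 5 of these column sets were lower in old heads at each of the 6 time points. On the CPM scale the 3 old libraries lay below the 3 young ones at 6 of 6 times for dme-clu-26, dme-clu-41 and dme-clu-48 in the second set and dme-clu-44 in the first. For dme-clu-70 in the first set this held at 5 of 6 times, the exception being ZT0. In RPM it held at 6 of 6 times for dme-clu-41 in the second set only. For each of the others it held at 5 of 6 times in RPM, with ZT0 as the exception. Differences of group means ranged over the day from -2.41 at ZT0 to -1.59 at ZT8 for dme-clu-41 in the second set and from -1.95 at ZT8 to -0.92 at ZT0 for dme-clu-70 in the first (log2 CPM). In RPM the range for dme-clu-41 was narrower, from -2.37 at ZT8 to -2.05 at ZT12. At ZT0, the time of the old library high in ovary markers, the RPM difference was small for 2 first-set features. It was -0.30 for dme-clu-44 and -0.18 for dme-clu-70 (log2). These column sets were chosen for their fall, and possibly also for 1 direction at all 6 times. Neither that direction nor these counts of times are therefore separate evidence. The counts of times were not made for all tested features.

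Over all libraries, 5 of 85 features (5.88%) had every old library below every young one in CPM, and 4 of these were dme-clu-26, dme-clu-41 and dme-clu-48 in the second set and dme-clu-44 in the first. Without the 3 libraries high in ovary markers, 7 of 85 features (8.24%) did so in RPM, and 6 of them were member features, the sixth being dme-clu-41 in the first set. With the edgeR quasi-likelihood test and Benjamini-Hochberg adjustment, 13 of 85 features (15.3%) were lower and 10 (11.8%) higher in old heads. Over the other 33 libraries, 18 of 71 tested features were lower and 12 higher. The members' own calls are not read from this test, since the same contrast chose them. The median log2 change was -1.59 over the 9 tested member features and 0.01 over all 85, a contrast that the choice of members sets.

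The 5 column sets are the deepest among features that were called lower, averaged 10 CPM or more and were lower at all 6 times. Such a rank restates how the members were chosen, so it is no separate evidence. The member closest to the limit was dme-clu-70 in the first set at -1.59. The first features outside were dme-clu-47 in the second set at -1.16 (SE 0.126), dme-clu-85 in the second set at -0.53 (SE 0.171) and dme-clu-31 in the first set at -0.30 (SE 0.113). A change of -1.75 was fitted for dme-clu-38 in the first set, but with an SE of 0.641 and not in 1 direction at all times.

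**Figure D2:**
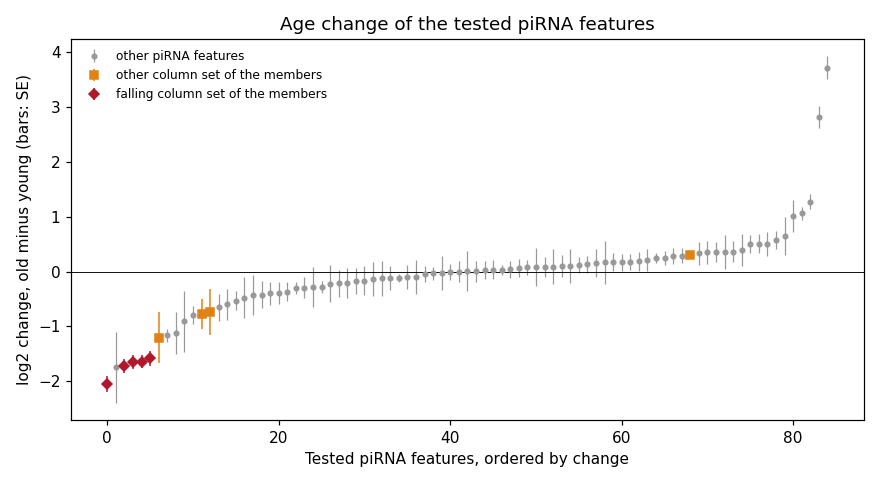
Fitted log2 change, old minus young, of the 85 tested piRNA features in order of change, with bars for the SE. The 5 column sets that chose the members (red diamonds) lie between -2.05 and -1.59, and the other sets of the same clusters (orange squares) between -1.20 and 0.30.

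Fitted changes over the other 33 libraries were -2.19 for dme-clu-41, -1.83 for dme-clu-48, -1.82 for dme-clu-44, -1.80 for dme-clu-26 and -1.71 for dme-clu-70, each in the column set with the age difference. The scale on which libraries are compared moved the size of the differences but not their direction. The total behind the RPM was larger in old libraries, 79.8 ± 7.13 against 56.7 ± 7.54 M reads in young ones (n = 18 each). Scaled to it, the fitted changes were -2.22 for dme-clu-41, -1.94 for dme-clu-48, -1.85 for dme-clu-44, -1.83 for dme-clu-70 and -1.82 for dme-clu-26, and the median of all features was -0.22. Scaled to the microRNA total they were -1.41, -1.15, -1.04, -1.03 and -1.01 in the same order, and the median of all features was 0.60. A change of scale shifts all features of a library alike, so a similar difference relative to the median feature on the 3 scales is no separate evidence.

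The second column set of dme-clu-44 went the other way from its first. Its young levels were 1.25 to 3.84 RPM with a median of 1.44, and its old levels 1.47 to 2.80 RPM with a median of 1.61. The ranges overlapped almost wholly. Without the 3 libraries high in ovary markers the means were 1.44 ± 0.173 RPM in young (n = 16) and 1.63 ± 0.108 RPM in old heads (n = 17). The fitted change was 0.30 (SE 0.0745), 0.23 without the 3 libraries, 0.05 when scaled to the total behind the RPM and 0.86 when scaled to the microRNA total.

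Within dme-clu-44 the balance of the sets therefore differed between the ages, on counts alone and without any scaling between libraries. The second set held 50.7% ± 2.38 of the cluster's counts in young heads (46.0% to 54.7%, n = 16) and 80.8% ± 2.40 in old heads (77.4% to 86.0%, n = 17), with the 3 libraries left out. In those libraries the second set's share was as low as 40.4% among young and 50.6% among old. Of 35 clusters with both sets tested, dme-clu-44 had the widest gap between its sets in log2 age change, 1.94, ahead of dme-clu-90 at 1.25. Members were chosen for a deep fall in a set, which favours a wide gap, so this rank is a description only. In 8 of the 35 the fitted changes of the sets had opposite signs on the CPM scale.

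The sets of the other clusters also differed. In the first set dme-clu-41 had median levels of 0.677 RPM in young and 0.372 RPM in old libraries, with a range of 0.577 to 28.8 RPM in young and 0.317 to 15.9 RPM in old. Leaving out the 3 libraries, the highest values were 5.91 RPM in young and 0.555 RPM in old heads. The fitted change was -1.20 (SE 0.468), but -0.77 without young ZT4 replicate 3 alone, -1.63 without old ZT0 replicate 1 alone and -1.13 without all 3. The second set's share of this cluster's counts, without the 3 libraries, was 89.2% ± 9.15 in young and 80.2% ± 2.80 in old heads.

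For dme-clu-48 in the first set the medians were 0.101 RPM in young and 0.0776 RPM in old libraries, and the fitted change was -0.74 (SE 0.423). It was -0.38 without young ZT4 replicate 3, -0.48 without young ZT8 replicate 3 and -0.45 without all 3 libraries. Without old ZT0 replicate 1 alone it was -1.09. Young levels spanned 0.0382 to 3.07 RPM and old levels 0.0273 to 1.23 RPM. Their highest values were, with the 3 libraries left out, 0.309 and 0.226 RPM, and the ages overlapped either way. The second set's share of the cluster was 66.6% ± 11.03 in young and 44.3% ± 11.8 in old heads, again without the 3 libraries.

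For dme-clu-70 in the second set the medians were 0.117 RPM in young and 0.0645 RPM in old libraries, and the fitted change was -0.77 (SE 0.272), or -0.78 without the 3 libraries. Young levels spanned 0.0631 to 1.58 RPM and old levels 0.0333 to 0.885 RPM, with highest values of 0.243 and 0.164 RPM once the 3 libraries were left out. The share of the second set went the opposite way from that of dme-clu-48, 26.7% ± 6.82 in young and 41.4% ± 9.92 in old heads.

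**Figure D3:**
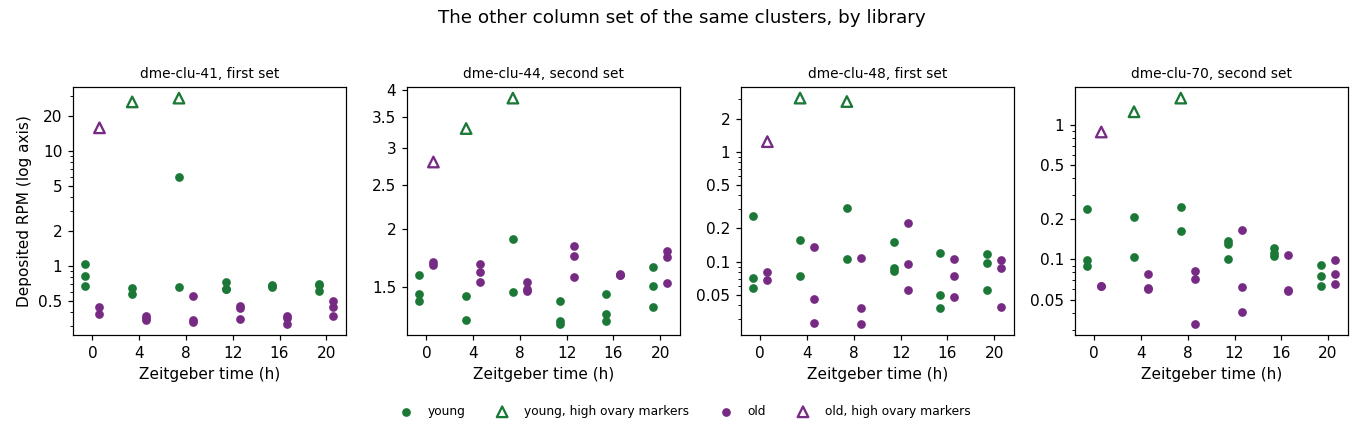
Deposited RPM (log axis) of the other column set of 4 clusters against zeitgeber time in hours, with 1 point per library (young green, old purple, triangles for the 3 libraries high in ovary markers). The triangles are the highest points of each panel, and young ZT8 replicate 1, at 5.91 RPM, also stands apart for dme-clu-41 in the first set.

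The 3 libraries high in ovary markers separated the member features clearly. In the second set dme-clu-41 was at 0.972, 1.02 and 1.09 times the mean RPM of the other 2 libraries of its group for the young ZT4 library, the young ZT8 library and the old one. The same cluster in the first set was at 43.8, 8.76 and 38.2 times. The lower middle ratio goes with young ZT8 replicate 1, another library of that group, whose level was 5.91 RPM against 0.665 RPM in replicate 2.

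The other column sets lay between these. Ratios for dme-clu-48 were 26.6, 13.7 and 16.5 in the first set and 4.10, 2.27 and 4.17 in the second, in the same order of libraries. For dme-clu-70 they were 8.04, 7.81 and 14.0 in the second set and 3.67, 4.20 and 6.69 in the first. For dme-clu-44 they were 3.0, 3.55 and 8.39 in the first set and 2.44, 2.28 and 1.65 in the second. For dme-clu-26 in the second set they were 1.58, 2.38 and 3.87.

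The median ratio of the tested features compared was 2.32, 3.31 and 2.73 in the first set (35, 38 and 39 features). In the second it was 5.70, 4.49 and 3.88 (39, 43 and 42 features). Thus dme-clu-41 and dme-clu-44 in the second set were below the median of their set in each of the 3 libraries. For dme-clu-26 in the second set this held in the young libraries, and in the old one it lay at the median (3.87 against 3.88). For dme-clu-48 in the second set it also held in the young libraries, but in the old one the ratio was above the median (4.17 against 3.88). The second set of dme-clu-70 was above the median in each of the 3 libraries. In the first set dme-clu-41, dme-clu-44, dme-clu-48 and dme-clu-70 were above theirs. Because TMM factors were 3.20, 2.71 and 2.40 in these libraries, a feature at a steady RPM reads low there in CPM. For dme-clu-41 in the second set the lowest young CPM was 602 with the 3 libraries and 1254 without them.

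**Figure D4:**
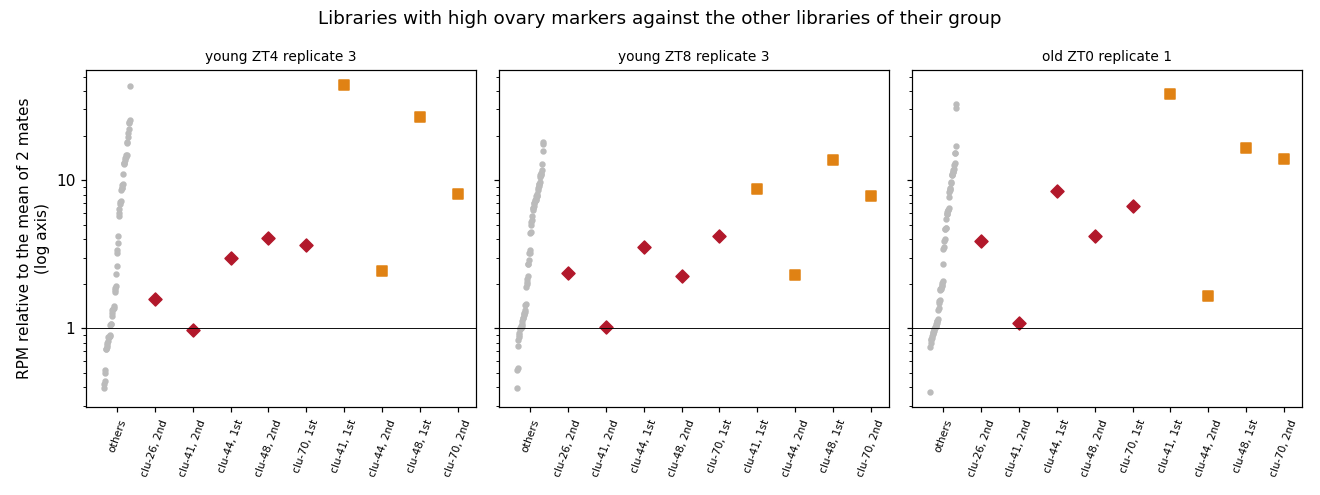
RPM in each of the 3 libraries high in ovary markers relative to the mean of the other 2 libraries of its group (log axis); red diamonds are the column sets with the age difference, orange squares the other sets of the same clusters, and grey points the other piRNA features with counts. In the second set dme-clu-41 stays at 0.972 to 1.09, and in the first set it reaches 43.8.

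Whether the clusters followed the day was tested with a 24 h cosine and sine in each age, a measure that did not choose them. In young heads none of the 5 column sets with the age difference passed the threshold of 0.05 in edgeR after adjustment over 85 features. Fitted peak-to-trough sizes were 0.63 log2 for dme-clu-41 (adjusted p = 0.162), 0.57 for dme-clu-26 (0.119), 0.16 for dme-clu-48 (0.817), 0.16 for dme-clu-44 (0.823) and 0.14 for dme-clu-70 (0.859). Without the 3 libraries high in ovary markers they were 0.11 for dme-clu-41 (edgeR adjusted p = 0.914) and 0.36 for dme-clu-26 (0.538). The rest were then at 0.17 or less. Scaled to the total behind the RPM, the size for dme-clu-41 was 0.04 (edgeR adjusted p = 0.934). Without young ZT4 replicate 1 the rhythm of dme-clu-26 in the second set did pass, at a size of 0.84 and an edgeR adjusted p of 0.0121. In simulated data of this design, 1 of 10 young rhythms of 1 log2 and 6 of 10 of 2 log2 were recovered, with 2 false calls. The simulated spread fell on all libraries alike, whereas in the data much of it came with the 3 libraries high in ovary markers. The simulated features were also drawn from all tested ones, so these rates do not give the power for the 5 column sets. Small rhythms could have gone undetected.

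Among the other sets, 3 passed in young heads. The largest was dme-clu-48 in the first set, with a size of 2.90 log2, a fitted peak at ZT5.6 and an edgeR adjusted p of 0.00845. It was followed by dme-clu-41 in the first set, at 2.86, ZT6.1 and 0.0101, and dme-clu-70 in the second set, at 1.60, ZT6.3 and 0.0217. That made 3 of 9 member features, against 39 of 85 features in all (45.9%), which is no excess over the background. The second set of dme-clu-44 had a size of 0.30 and an edgeR adjusted p of 0.214.

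Of the libraries high in ovary markers, 2 are young libraries of ZT4 and ZT8, on either side of these fitted peaks. Without all 3 such libraries, 2 of 71 tested features (2.82%) had a young rhythm, and dme-clu-41 in the first set was 1 of them, with a size of 1.37 and an edgeR adjusted p of 0.0413. The rhythm was then 1.07 (adjusted p = 0.355 in edgeR) for dme-clu-48 in the first set and 0.84 (adjusted p = 0.356) for dme-clu-70 in the second. Leaving out young ZT8 replicate 3 alone also ended the calls of dme-clu-41 (edgeR adjusted p = 0.0695), dme-clu-48 (0.0678) and dme-clu-70 (0.151). Without young ZT4 replicate 3 those of dme-clu-48 (0.0611) and dme-clu-70 (0.0754) ended. That of dme-clu-70 also ended without young ZT20 replicate 1 (0.0575) or young ZT20 replicate 3 (0.0507).

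A further 3 libraries had smaller excesses of ovary markers, namely replicate 1 of young ZT8, replicate 1 of old ZT20 and replicate 2 of old ZT0. Without all 6, an alternative chosen after the data were seen, no feature of 72 had a young rhythm in edgeR. For dme-clu-41 in the first set the size was then 0.11 (adjusted p = 0.991). Young ZT8 replicate 1 was at 5.91 RPM in that set, and the remaining young libraries ended at 1.05 RPM.

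**Figure D5:**
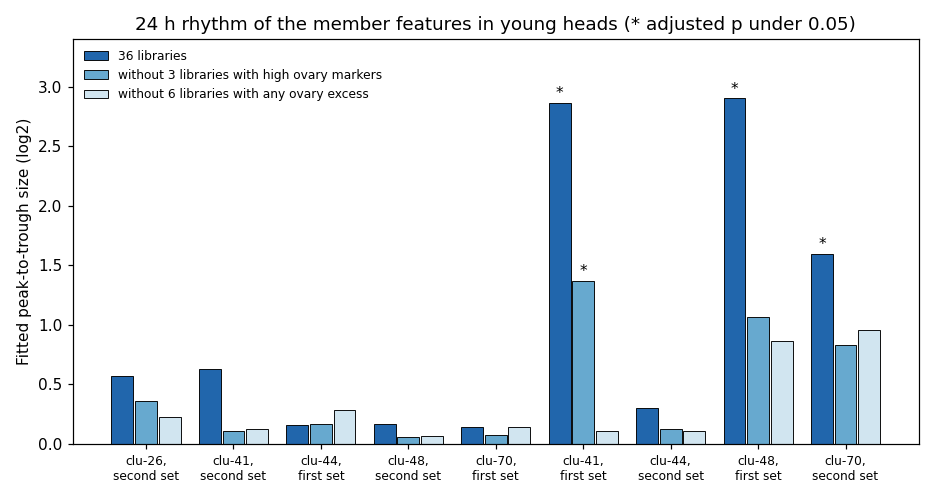
Fitted peak-to-trough size (log2) of the 24 h rhythm of the 9 member features in young heads, over all 36 libraries, without the 3 libraries high in ovary markers and without 6 libraries with any excess; an asterisk marks an edgeR adjusted p under 0.05. Over all libraries the asterisks stand at 2.90, 2.86 and 1.60, and without 6 libraries none is left.

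In old heads no feature passed the edgeR test of rhythm (0 of 85, 0%). Unadjusted p-values were under 0.05 for 10 features, 2 of them member features, and DESeq2 and limma also called 0. Those 2 were dme-clu-41 in the first set, with a size of 2.38 log2 and a peak at ZT0.2, and dme-clu-70 in the first set, with a size of 0.85 and a peak at ZT22.9. Both had an edgeR adjusted p of 0.189. The old library high in ovary markers is from ZT0, and without it the sizes were 0.08 and 0.28. With time point as a factor in place of the cosine, dme-clu-41 in the first set passed in old heads (edgeR adjusted p = 0.0445).

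The rhythms were also compared between the ages. In 1 of 85 features (1.18%) the rhythm differed by edgeR, and it was no member. The closest members were dme-clu-41 in the first set and dme-clu-70 in the second, each with an adjusted p of 0.084, followed by dme-clu-48 in the first set at 0.0885. The 5 column sets with the age difference had edgeR adjusted p-values from 0.211 for dme-clu-70 to 0.741 for dme-clu-48. The smallest edgeR adjusted p of a member in this comparison was 0.396 once the 3 libraries were left out.

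No feature passed the edgeR test of whether its age difference changed over the day (0 of 85, 0%). Unadjusted p-values were under 0.05 for 26 features, 3 of them member features, while DESeq2 called 4 after adjustment and limma 0. For the 5 column sets with the age difference the edgeR adjusted p ran from 0.40 for dme-clu-70 to 0.947 for dme-clu-48. This test may lean on the rule, which may have asked for 1 direction at all 6 times. The members nearest to the threshold were dme-clu-41 in the first set (adjusted p = 0.065), dme-clu-48 in the first set (0.108) and dme-clu-70 in the second set (0.108). The smallest edgeR adjusted p of a member became 0.224 with the 3 libraries left out, for dme-clu-41 in the first set.

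Features that varied most like the members were sought in the residual log2 CPM of 36 libraries after the mean of each of the 12 groups was removed. For dme-clu-41 in the second set the nearest was dme-clu-40 in the second set, with Pearson's r of 0.97, and 0.71 without the 3 libraries high in ovary markers (33 libraries). For its first set it was dme-clu-57 in the second set (0.93), and among microRNAs miR-956-3p (0.90, and 0.84 over 33 libraries). The ovary-enriched miR-318-3p was among the nearest 2 microRNAs for dme-clu-41 and dme-clu-48 in the first set (0.88 and 0.75) and for both sets of dme-clu-70 (0.56 in the first, 0.67 in the second). It was not among them for any of these without the 3 libraries.

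For the other column sets with the age difference likeness was weaker. The nearest to dme-clu-44 in the first set was dme-clu-47 in the second set (0.68), followed by dme-clu-70 in the first set (0.64). The nearest to dme-clu-48 in the second set was also dme-clu-47 in the second set (0.50), and miR-987-5p among microRNAs (0.61, and 0.69 over 33 libraries). For dme-clu-26 in the second set it was dme-clu-9 in the first set (0.52), and for dme-clu-70 in the first set dme-clu-79 in the second (0.66). Values were higher for dme-clu-48 in the first set (0.84) and for dme-clu-70 and dme-clu-44 in the second (0.83 and 0.82). Their nearest features were dme-clu-49, dme-clu-14 and dme-clu-40, all in the second set. Over 33 libraries the highest values of these 3 were 0.66, 0.55 and 0.77. Among the 5 column sets themselves the 10 pairwise values ran from -0.45 to 0.64 with a median of 0.25, and from 0.03 to 0.34 without the 3 libraries. These points share library, depth and TMM factor, so the values describe the libraries.

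All 9 member features with counts carried fractional counts in 36 of 36 libraries, as 61 of the other 76 tested features did in every library where they had counts. Whether reads that fit several places contribute to the age difference was not tested.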

How the data were processed

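Small RNA was measured in 36 libraries of fly heads. The authors deposited piRNA tables of expected counts per numbered cluster and of RPM, and microRNA tables in the same units, in 24 tables, all of which were used. Per the submitters' processing notes, Bowtie and the BDGP6 and dm6 builds were used, and versions are not given in the sources used here. The deposited RPM of piRNAs divides the expected count by a total of 36.5 to 91.6 M reads that the tables do not name. What the word adjusted in the deposited names means is not stated. MicroRNA totals were 16.2 to 30.4 M counts.

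Tests used edgeR 4.0.16 (R 4.3.3) on rounded counts: filterByExpr over 12 groups with a minimum count of 10, TMM factors, and robust quasi-likelihood fits of 85 features of 112, 27 being too low. P-values were adjusted by Benjamini-Hochberg over all 85, and the threshold was 0.05. Age was fitted with time point as a factor, rhythms with a cosine and sine of 24 h, and time dependence as an age-by-time interaction. DESeq2 1.42.0 and limma 3.58.1 on log2(RPM + 1) or log2(RPM + 0.1) were alternatives. Limma changes understate those of low features.

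The members, marker lists and tests were chosen with earlier results of these data known. Named features are the members in both sets, the first 3 outside their rule, and for each tested member the 3 piRNA and 2 microRNA features most like it over libraries. The 4 features with the smallest rhythm p in each age were listed as a comparison. The fits were tested on simulated data: of 20 age changes of 1 log2 among 85 features, 20 were recovered, with 1 false call.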

Additional observations from a re-analysis of the deposited data

How the results depend on the processing

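No member feature changed the sign of its age difference under 14 other settings or when any of the 36 libraries was left out. The number of features differing with age was 23, but 41 with the microRNA total as library size (35 higher and 6 lower, against 10 higher and 13 lower), 7 with counts summed per age and replicate number, and 38 when the 6 libraries with an ovary excess were left out; leaving out 1 library gave 17 to 32. Young rhythms numbered 39, but 11 with DESeq2, 0 with limma at either pseudocount, 16 with time point as a factor, 2 without the 3 libraries high in ovary markers and 0 without 6; leaving out 1 library gave 1 (young ZT8 replicate 3) to 41, and 8 without young ZT4 replicate 3. Old rhythms numbered 0, but 3 with time point as a factor. Rhythm differences between the ages numbered 1, but 17 with library totals alone, 20 with the microRNA total, and 0 with RLE factors, the RPM total, the sets fitted apart, no filter, DESeq2, limma, and without 3 or 6 libraries; leaving out 1 library gave 0 to 10. Age differences that depended on time numbered 0, but 36 with library totals alone, 29 with the RPM total, 27 with the microRNA total, and 4 with the sets fitted apart or DESeq2; leaving out 1 library gave 0 to 14. The members among these were dme-clu-41 and dme-clu-48 in the first set and dme-clu-70 in both sets. The cause of these shifts was not tested.

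The young rhythm of dme-clu-44 in the second set passed with the RPM total (edgeR adjusted p = 0.0274) and the microRNA total (0.0261), and that of dme-clu-70 in the first set with the microRNA total (0.0433). Limma ended the 3 young rhythms among members, and DESeq2 and time point as a factor ended that of dme-clu-70 in the second set. With log2(RPM + 1) in limma the change of dme-clu-48 in the second set shrank to -0.23 and that of dme-clu-70 in the first to -0.35.

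Replicate numbers did not pair the libraries: young and old libraries of the same number and time had correlated deviations of -0.31 to 0.32, over 0.1 in 5 of 18 pairs. Libraries of 1 age and replicate number at different times had correlations of -0.67 to 0.93, over 0.1 in 29 of 90 pairs, and both young libraries high in ovary markers carry replicate number 3. With a replicate block 18 features differed with age and 28 had a young rhythm, 0 an old one and 1 a difference. The fit without old ZT8 replicate 1 is that library's leave-one-out. Low counts, with a median of 4.46 per old library for dme-clu-48 in the second set, limit what the rhythm tests could show.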
